A study of Mus musculus with 16 samples.

Results

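The expression of 10 imprinted genes, H19, Igf2, Igf2r, Peg3, Mest, Dlk1, Plagl1, Cdkn1c, Grb10 and Snrpn, was followed in mouse J1 embryonic stem (ES) cells in which the homeodomain repressor Tgif1, or its relative Tgif2, had been perturbed. The group was set by gene name and not by a threshold on any value. The probe sets used were those that the array annotation paired with that gene symbol alone, which gave 16 probe sets for 9 of the 10 genes, out of 20380 such probe sets for 12393 genes on the array. H19 had no probe set of its own, since its only probe set also carries Mir675. Igf2 and Igf2r had 2 probe sets each, Peg3 and Grb10 had 3 each, Plagl1 had 2, and Mest, Dlk1, Cdkn1c and Snrpn had 1 each.

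The 16 arrays, Affymetrix Mouse 430A 2.0 chips, fell into 5 groups. Tgif1 KD (knockdown, 2 arrays) was set against shControl (control knockdown, 2 arrays). Tgif1 OE and Tgif2 OE (overexpression, 4 arrays each) were each set against BirA control, which overexpresses BirA and served as the overexpression control (4 arrays). All cells were of the J1 strain and grew on gelatin in serum with leukemia inhibitory factor (LIF). The labels name neither the vector and promoter of the transgenes nor the source of the replicates, which may be separate cultures, clones or repeat arrays. Every p-value therefore rests on a spread between samples that may be technical.

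Genomic imprinting silences the copy of a gene inherited from one parent, through DNA methylation laid down in the germ line and kept in the embryo. Igf2, Peg3, Mest, Dlk1, Plagl1 and Snrpn are expressed from the paternal copy, and H19, Igf2r and Cdkn1c from the maternal copy, as is Grb10 in most tissues. Many members act on growth: Igf2 is a fetal growth factor, Igf2r clears it from the cell surface, Grb10 inhibits signalling from insulin and insulin-like growth factor receptors, and Cdkn1c (p57Kip2) inhibits cyclin-dependent kinases. An array measures the sum of both parental copies, so the values say nothing about which copy was transcribed. In such bulk samples, a change in the number of cells that express a gene and a change in the RNA per cell cannot be told apart.

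The targeted genes were examined before the members. Tgif1 had 7.46 and 7.12 log2 units on the 2 Tgif1 KD arrays, against 10.71 and 10.66 on the shControl arrays, a log2 change of -3.39 ± 0.10 (SE, adjusted p = 7.04e-11). Tgif2, by contrast, was higher after the knockdown (0.81 ± 0.09). On the arrays labelled Tgif1 OE, Tgif1 averaged 10.12 ± 0.10 (SD, n = 4), below the 10.69 ± 0.04 of BirA control (SD, n = 4), a log2 change of -0.58 ± 0.07 (SE). Tgif2 averaged 9.37 ± 0.09 on the arrays labelled Tgif2 OE and 9.26 ± 0.08 in BirA control (SD, n = 4 each). The files do not say whether either probe set covers transgene RNA. Higher expression of the named gene is thus not seen in these data, and Tgif1 OE and Tgif2 OE stand for the labels throughout.

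Tgif proteins bind DNA through a homeodomain with the core TGTCA, which reads TGACA on the other strand. RefSeq promoter windows on GRCm38.p6, taken as the 250 bases before an annotated start, were available for 8 of the 10 genes in 17 windows. The core, on either strand, was present in 7 of these windows (41.2%), against 40% of all 32851 windows of the same length. Windows of 5 members with a called change are printed, to set those with the most copies of the core, Igf2 (chr7:142666817-142667066, minus strand), Peg3 (chr7:6730420-6730669, minus strand) and Plagl1 (chr10:13090582-13090831, plus strand), beside a pair without it, Mest (chr6:30737800-30738049, plus strand) and Grb10 (chr11:12037421-12037670, minus strand). Capitals mark the core on either strand, and each sequence runs 5′ to 3′ towards the start site.
Igf2: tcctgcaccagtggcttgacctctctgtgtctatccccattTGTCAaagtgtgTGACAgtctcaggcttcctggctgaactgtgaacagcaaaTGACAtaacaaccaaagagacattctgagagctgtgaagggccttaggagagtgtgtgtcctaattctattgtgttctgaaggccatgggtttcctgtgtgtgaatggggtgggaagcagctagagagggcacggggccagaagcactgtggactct
Peg3: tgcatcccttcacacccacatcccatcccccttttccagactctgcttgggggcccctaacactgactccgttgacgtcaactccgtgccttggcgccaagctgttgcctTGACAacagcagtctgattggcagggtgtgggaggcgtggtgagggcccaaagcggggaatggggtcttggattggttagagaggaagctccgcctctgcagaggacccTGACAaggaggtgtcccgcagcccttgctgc
Plagl1: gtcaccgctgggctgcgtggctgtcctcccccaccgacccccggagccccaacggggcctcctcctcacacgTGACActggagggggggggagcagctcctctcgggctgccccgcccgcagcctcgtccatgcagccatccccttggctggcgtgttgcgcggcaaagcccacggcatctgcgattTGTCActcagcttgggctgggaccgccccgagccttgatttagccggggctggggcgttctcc
Mest: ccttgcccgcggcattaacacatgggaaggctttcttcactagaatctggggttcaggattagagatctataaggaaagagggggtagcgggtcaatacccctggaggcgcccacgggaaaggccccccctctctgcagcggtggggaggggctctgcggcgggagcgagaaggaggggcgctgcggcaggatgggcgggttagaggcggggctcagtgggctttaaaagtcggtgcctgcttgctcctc
Grb10: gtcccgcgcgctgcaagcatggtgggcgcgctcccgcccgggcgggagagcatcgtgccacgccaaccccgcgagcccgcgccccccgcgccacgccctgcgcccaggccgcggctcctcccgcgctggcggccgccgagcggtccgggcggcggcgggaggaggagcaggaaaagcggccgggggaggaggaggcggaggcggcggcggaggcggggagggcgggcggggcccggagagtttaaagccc
The printed Igf2 window held 3 copies of the core and 1 CpG, while the other 3 windows of Igf2 held 0 copies and 10, 22 and 6 CpGs. The Peg3 window held 2 copies and 8 CpGs, the Plagl1 window 2 copies and 19 CpGs, the Mest window 0 copies and 14 CpGs, and the Grb10 window 0 copies and 40 CpGs, where the median over all windows was 6 CpGs. Of the windows not printed, those of Mest, Grb10 and Dlk1 held 0 copies, that of Igf2r held 1, and the 4 of Snrpn held 0 to 2. The letters describe the window and do not show binding.

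**Figure D1:**
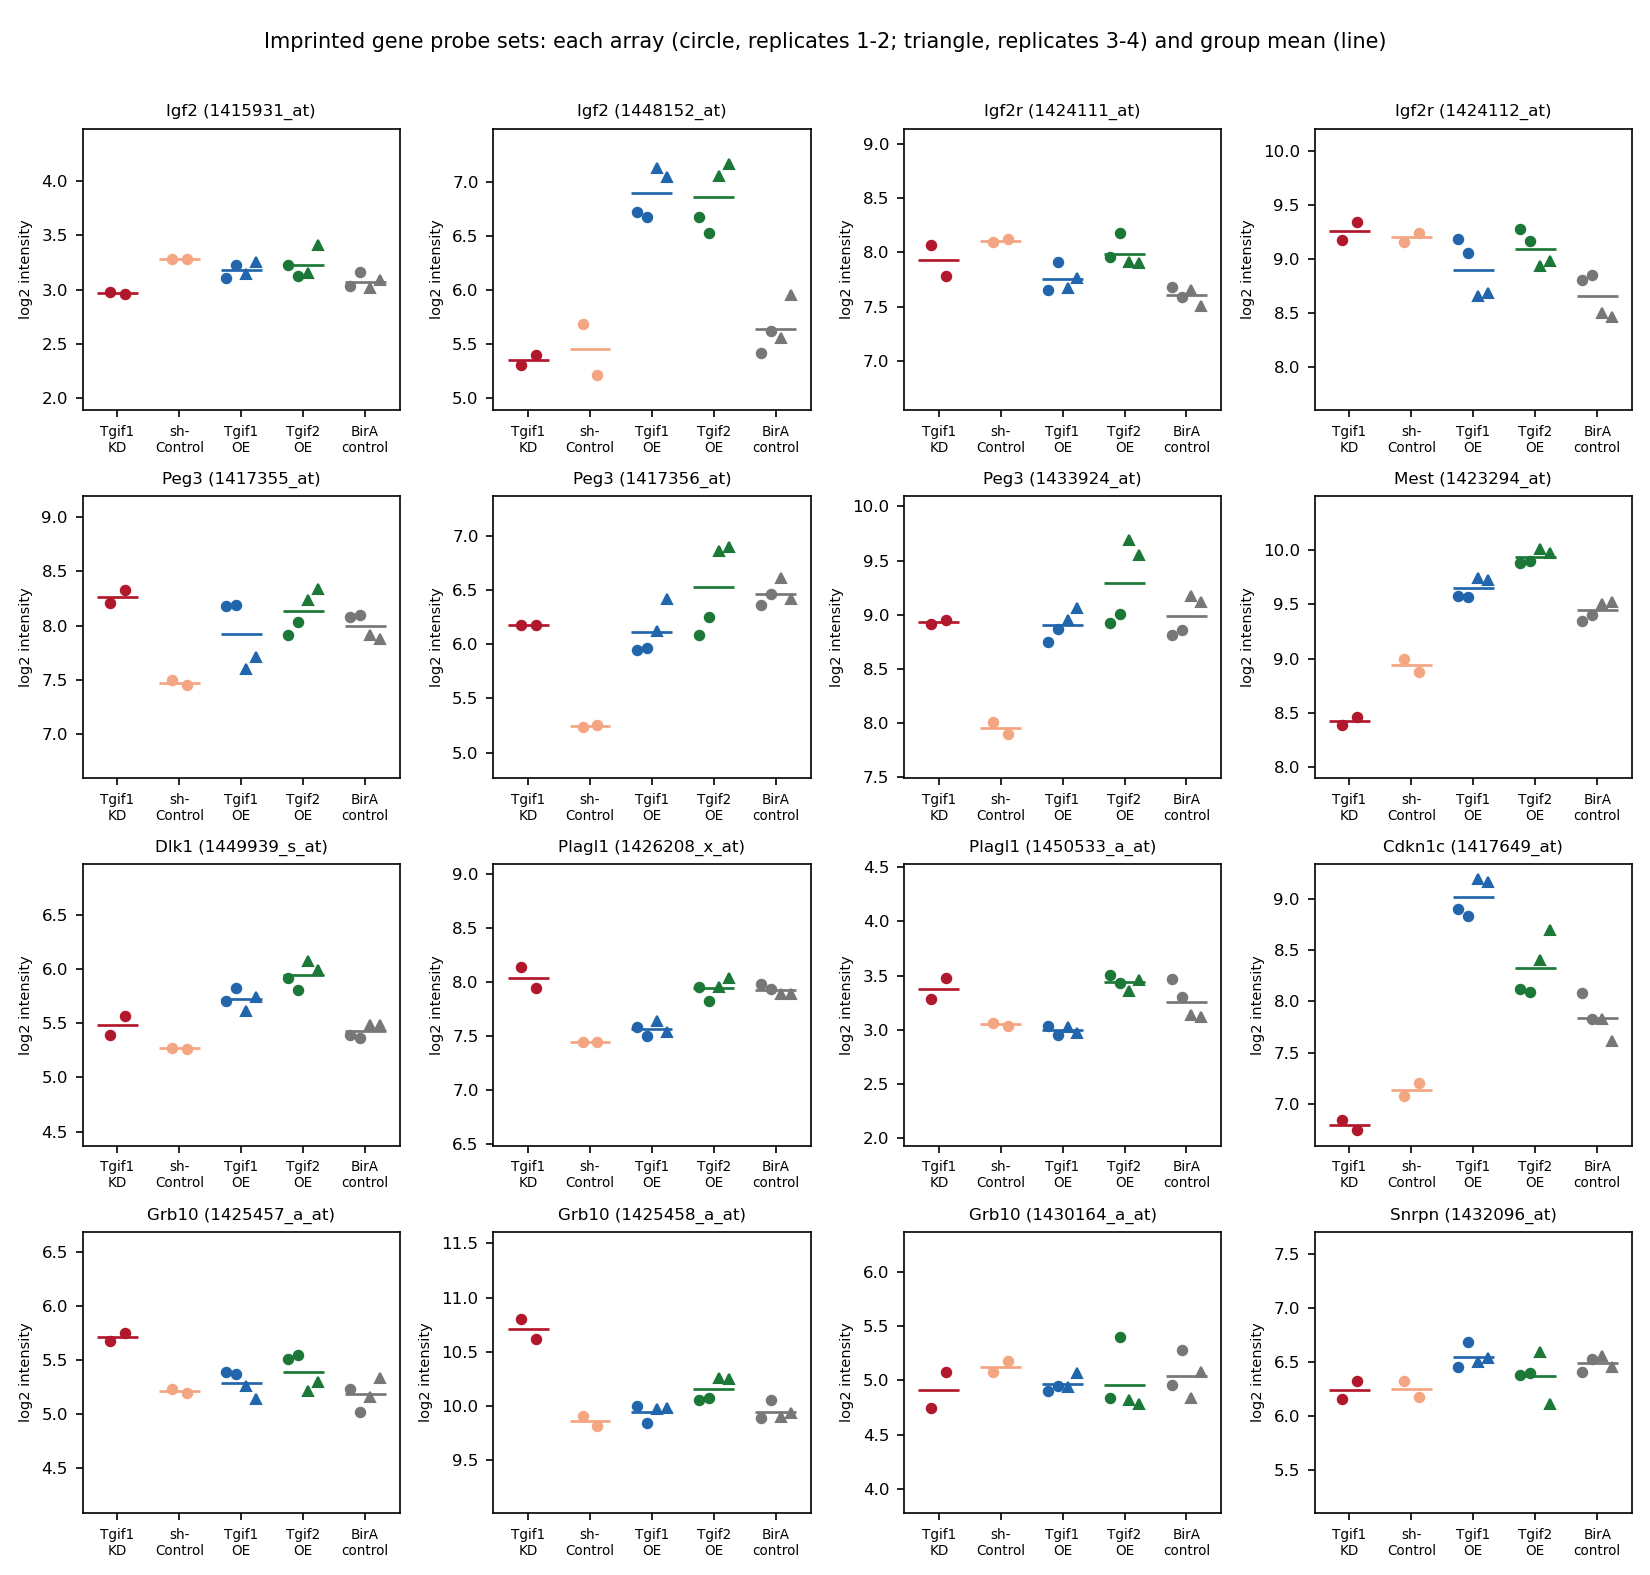
Log2 intensity (vertical axis) of the 16 imprinted gene probe sets on every array, with 1 panel per probe set and the groups along the horizontal axis. Circles are replicates 1 and 2, triangles are replicates 3 and 4, and lines are group means. Igf2 (1448152_at) and Cdkn1c stand higher on all 8 overexpression arrays than on any BirA control array, and all 3 Peg3 panels have shControl as the lowest group.

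Knockdown of Tgif1 was accompanied by higher Peg3, Grb10 and Plagl1 and by lower Mest. Peg3 was 1.74-fold to 1.97-fold higher than in shControl over its 3 probe sets, the main Grb10 probe set was 1.80-fold higher, and Mest was at 70.2% of its shControl level. In all, 7 of the 16 probe sets rose and 2 fell (adjusted p under 0.05, limma's moderated test with Benjamini-Hochberg adjustment over 20380 probe sets), against 23% of all probe sets called in this comparison, 11.8% higher and 11.3% lower. The median change of the 16 was 0.13 log2, against -0.04 over all probe sets, and the median size of a change was 0.34 against 0.19.

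In the growth factor group, the receptor adaptor Grb10 carried the change. Its probe set 1425458_a_at had 10.80 and 10.61 in Tgif1 KD, against 9.90 and 9.82 in shControl. The groups did not overlap, as was the case for 67.7% of all probe sets with 2 arrays against 2, and the log2 change was 0.85 ± 0.10 (adjusted p = 2.13e-05). The dimmer 1425457_a_at also rose, with 5.67 and 5.75 in Tgif1 KD, against 5.23 and 5.19 in shControl (0.50 ± 0.12, adjusted p = 0.00863). Without Tgif1 KD replicate 2 or without shControl replicate 2 that second call was lost, with an adjusted p of up to 0.0658. The third Grb10 probe set, 1430164_a_at, which is dim on all arrays, gave -0.22 (adjusted p = 0.45), so the probe sets of Grb10 disagreed. Affymetrix names with _a_at cover several transcripts of a gene.

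Igf2 itself showed no such rise. Its brighter probe set 1448152_at had 5.31 and 5.40 in Tgif1 KD, against 5.69 and 5.21 in shControl, and the KD values lay within the shControl range (-0.10 ± 0.23, adjusted p = 0.812). The other, 1415931_at, had 2.98 and 2.96 in Tgif1 KD, against 3.28 in each shControl array, near the bottom of the scale. It was called lower (-0.31 ± 0.09, adjusted p = 0.0259), but the call was lost on leaving out any 1 of the 4 arrays, with an adjusted p of up to 0.112. Igf2r gave -0.18 and 0.06 at its 2 probe sets (adjusted p = 0.308 and 0.862). Cdkn1c had 6.84 and 6.74 in Tgif1 KD, against 7.07 and 7.20 in shControl. Those ranges did not overlap, yet the change of -0.35 ± 0.19 did not pass the test (adjusted p = 0.214).

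The zinc finger genes Peg3 and Plagl1 were called higher at every probe set. Peg3 1433924_at had 8.91 and 8.95 in Tgif1 KD, against 8.01 and 7.90 in shControl (0.98 ± 0.21, adjusted p = 0.00319). The Peg3 probe sets 1417356_at and 1417355_at gave 0.93 ± 0.23 and 0.80 ± 0.18 (adjusted p = 0.00713 and 0.00524), and at all 3 the groups were separate. Plagl1, whose protein arrests cell growth in several cell lines, had 8.13 and 7.94 at 1426208_x_at in Tgif1 KD, against 7.45 and 7.44 in shControl (0.60 ± 0.09, adjusted p = 0.000167). The suffix _x_at marks probes that may also match other sequences. The dim second probe set of Plagl1 gave 0.33 ± 0.11 (adjusted p = 0.0359), a call lost without Tgif1 KD replicate 2, shControl replicate 1 or shControl replicate 2, with an adjusted p of up to 0.261.

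For Peg3 and Plagl1, the position of shControl among the 5 groups bears on how the change reads. The 2 shControl arrays were the lowest of all 16 at each Peg3 probe set, and at 1433924_at the mean was 8.93 ± 0.03 in Tgif1 KD, 7.96 ± 0.08 in shControl (SD, n = 2 each) and 8.99 ± 0.18 in BirA control (SD, n = 4). Between the controls, shControl minus BirA control was -0.52, -1.22 and -1.03 at the Peg3 probe sets 1417355_at, 1417356_at and 1433924_at. Plagl1 1426208_x_at was likewise 0.48 lower in shControl than in BirA control (-0.48 ± 0.08). Grb10 1425458_a_at behaved otherwise: its controls overlapped, with a difference of -0.08 ± 0.09 (adjusted p = 0.564), and the 2 Tgif1 KD arrays were the highest of the 16.

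Mest, which encodes a protein of the alpha/beta hydrolase fold family, fell. It had 8.39 and 8.46 in Tgif1 KD, against 8.998 and 8.88 in shControl, separate groups with a log2 change of -0.51 ± 0.09 (adjusted p = 0.000805). Dlk1, a transmembrane protein related to Notch ligands, had 5.39 and 5.57 in Tgif1 KD, against 5.27 in each shControl array (0.21 ± 0.10, adjusted p = 0.145). Snrpn, a component of the splicing machinery, showed a difference of -0.01 ± 0.13 (adjusted p = 0.974). Of the 9 calls, 6 remained on leaving out each array in turn.

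A measure of RNA quality moved with the knockdown. The 5′ minus 3′ signal of the Gapdh control probe sets was -0.10 to -0.08 in Tgif1 KD and -0.22 to -0.21 in shControl, and that of Actb was -0.52 to -0.49 in Tgif1 KD and -0.67 to -0.61 in shControl. The exact permutation test gave p = 0.333 for each (two-sided), the smallest that 2 arrays against 2 allow. Cell type markers were counted beside the 23% of all probe sets called in this comparison. Markers of primitive endoderm rose at 5 and fell at 0 of 18 probe sets (27.8%), with a mean level of 6.16 in Tgif1 KD and 5.91 to 5.93 in shControl. Fibroblast markers rose at 0 and fell at 1 of 14 (7.14%), the called one being Thy1 (-1.33). Their mean was 4.93 to 4.998 in Tgif1 KD and 5.22 to 5.27 in shControl. Trophoblast markers rose at 3 and fell at 3 of 20 (30%), with all 3 probe sets of Tfap2c lower and Eomes higher (0.71 at 1435172_at). They averaged 5.96 to 6.01 in Tgif1 KD and 6.15 to 6.19 in shControl. Blood markers rose at 0 and fell at 1 of 7 (14.3%), and averaged 4.67 to 4.68 in Tgif1 KD and 4.66 to 4.68 in shControl. ES cell markers rose at 4 and fell at 0 of 14 (28.6%), and averaged 12.45 to 12.47 in Tgif1 KD and 12.18 in shControl. The part of RNA quality or of these markers in the changes of the imprinted genes was not tested.

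**Figure D2:**
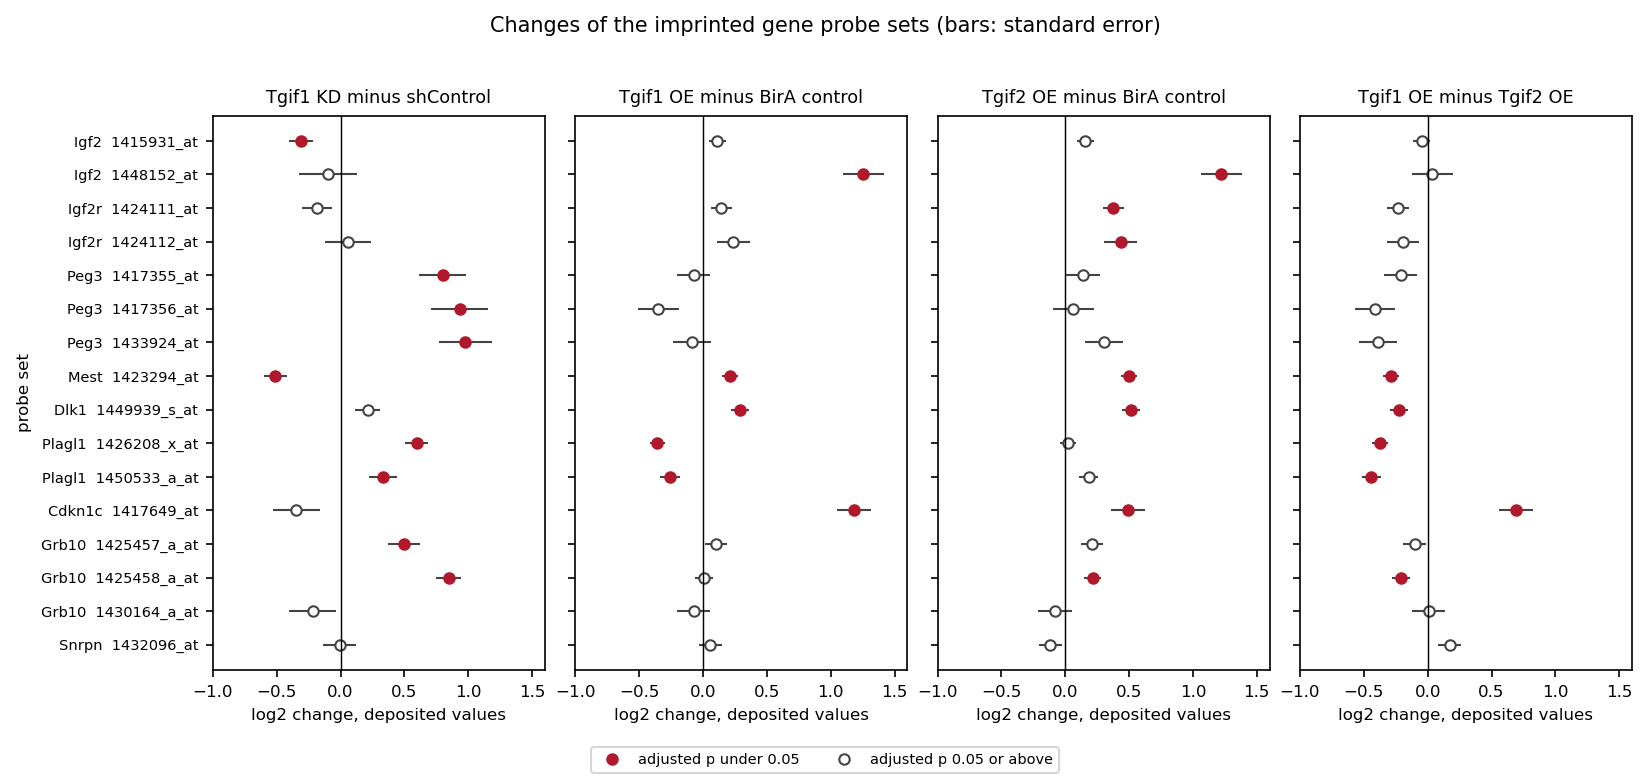
Log2 change (horizontal axis, deposited values) of the 16 probe sets (vertical axis) in 4 comparisons, with standard errors as bars. Filled points passed an adjusted p of 0.05. All Peg3 and Plagl1 probe sets and 2 of the 3 of Grb10 lie to the right in the knockdown, and Igf2 (1448152_at) and Cdkn1c lie far to the right in the Tgif1 OE comparison.

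The arrays labelled Tgif1 OE showed higher Igf2 and Cdkn1c than BirA control, by 2.39-fold and 2.27-fold, together with smaller increases of Dlk1 and Mest and lower Plagl1. Of the 16 probe sets, 4 rose and 2 fell, against 18.7% of all probe sets called, 9.25% higher and 9.4% lower. The median size of a change was 0.18 log2 for the members and 0.12 over all probe sets.

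Igf2 1448152_at had 6.72, 6.67, 7.13 and 7.04 on the Tgif1 OE arrays, against 5.41, 5.62, 5.55 and 5.96 in BirA control. Every Tgif1 OE array was above every BirA control array (groups were separate at 21.6% of all probe sets), and the log2 change was 1.26 ± 0.16 (adjusted p = 7.89e-05). The difference was 1.18 within replicates 1 and 2 and 1.33 within replicates 3 and 4. The dim Igf2 probe set gave 0.11 ± 0.07 (adjusted p = 0.304). Cdkn1c, the cell cycle inhibitor, had 8.90, 8.83, 9.19 and 9.16 in Tgif1 OE, against 8.08, 7.83, 7.82 and 7.61 in BirA control. The groups were again separate (1.18 ± 0.13, adjusted p = 2.57e-05), with differences of 0.91 within replicates 1 and 2 and 1.46 within replicates 3 and 4.

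Dlk1 had 5.71, 5.83, 5.61 and 5.74 in Tgif1 OE, against 5.39, 5.37, 5.49 and 5.49 in BirA control (0.29 ± 0.07, adjusted p = 0.00853). Mest had 9.58, 9.57, 9.74 and 9.73 in Tgif1 OE, against 9.34, 9.40, 9.51 and 9.52 in BirA control. Its groups did not overlap, though the change was small (0.21 ± 0.06, adjusted p = 0.0335) and the call was lost without Tgif1 OE replicate 3 or 4, or without BirA control replicate 1 or 2, with an adjusted p of up to 0.101. Plagl1 went the other way. Its 1426208_x_at had 7.58, 7.50, 7.64 and 7.54 in Tgif1 OE, against 7.98, 7.93, 7.89 and 7.88 in BirA control (-0.36 ± 0.06, adjusted p = 0.000864). The second Plagl1 probe set gave -0.26 ± 0.08 (adjusted p = 0.0269), a call lost without Tgif1 OE replicate 2 or 4, or without BirA control replicate 1 or 2 (adjusted p up to 0.082).

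Grb10, which rose in the knockdown, had 9.998, 9.84, 9.97 and 9.98 at 1425458_a_at in Tgif1 OE, against 9.89, 10.05, 9.89 and 9.93 in BirA control, overlapping values with a change of 0.01 ± 0.07 (adjusted p = 0.973). Peg3 gave -0.07, -0.35 and -0.09 at its 3 probe sets, none of which passed the test (adjusted p = 0.782, 0.155 and 0.774). Igf2r gave 0.14 and 0.24 (adjusted p = 0.274 and 0.232), and Snrpn 0.06 (adjusted p = 0.74). With the replicate number as a block, Igf2r 1424112_at (0.24, adjusted p = 0.00945) and Peg3 1417356_at (-0.35, adjusted p = 0.0436) were called as well, giving 5 higher and 3 lower, against 26.3% of all probe sets under that fit. With replicates 1 and 2 averaged, and 3 and 4 averaged, neither passed (adjusted p = 0.104 and 0.111).

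Replicates 1 and 2 were taken as 1 pair and replicates 3 and 4 as the other. The gap between the pair means exceeded that within pairs at 8 of the 16 probe sets in Tgif1 OE, 8 in BirA control and 13 in Tgif2 OE. Over all 20380 probe sets it did so at 11979, 12738 and 12854. Averaging each such pair left 3 calls, Igf2 and Cdkn1c higher and Plagl1 1426208_x_at lower, against 14.2% of all probe sets. The adjusted p was then 0.0717 for Dlk1, 0.0989 for Mest and 0.112 for the dim Plagl1 probe set.

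The arrays labelled Tgif2 OE had higher Igf2, Mest, Dlk1, Cdkn1c and Igf2r than BirA control. Of the 16 probe sets, 7 rose and 0 fell, against 31.7% of all probe sets called, 25.3% higher and 6.32% lower. The median change of all probe sets was 0.11 log2 in this comparison, so each change is given as deposited and then relative to that median. After quantile normalization of all arrays, 5 of the 7 remained, against 24.1% of all probe sets, 11.9% higher and 12.2% lower.

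Igf2 1448152_at had 6.67, 6.53, 7.05 and 7.16 in Tgif2 OE, against 5.41, 5.62, 5.55 and 5.96 in BirA control. The groups were separate, as at 30.1% of all probe sets, and the log2 change was 1.22 ± 0.16 (adjusted p = 6.29e-05), or 1.11 relative to the median. Mest had 9.88, 9.90, 10.01 and 9.98 in Tgif2 OE, all above the 9.34 to 9.52 of BirA control (0.50 ± 0.06, adjusted p = 5.55e-05, 0.39 relative to the median). Dlk1 had 5.92, 5.81, 6.08 and 5.99 in Tgif2 OE, against 5.37 to 5.49 in BirA control (0.52 ± 0.07, adjusted p = 7.67e-05, 0.41 relative to the median).

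Cdkn1c was the least even of the called members. It had 8.13, 8.09, 8.41 and 8.69 in Tgif2 OE, against 8.08, 7.83, 7.82 and 7.61 in BirA control (0.49 ± 0.13, adjusted p = 0.0108, 0.38 relative to the median). The groups did not overlap, but the lowest Tgif2 OE array was nearly level with the highest BirA control array. The difference was 0.15 within replicates 1 and 2 and 0.83 within replicates 3 and 4, and the test of that inequality gave an adjusted p of 0.0526. Igf2r, which carries Igf2 to the lysosome, rose by 0.38 ± 0.08 at 1424111_at (adjusted p = 0.00322, 0.27 relative to the median) and by 0.43 ± 0.13 at 1424112_at (adjusted p = 0.0174, 0.32 relative to the median). At 1424111_at it had 7.96, 8.18, 7.91 and 7.90 in Tgif2 OE, against 7.68, 7.59, 7.65 and 7.51 in BirA control. The call at 1424112_at was lost after quantile normalization (adjusted p = 0.0671), and also without BirA control replicate 3 or 4 or Tgif2 OE replicate 1 (adjusted p up to 0.0535).

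Grb10 1425458_a_at gave 0.21 ± 0.07 (adjusted p = 0.0291), which was 0.10 relative to the median and not called after quantile normalization (adjusted p = 0.354). Its call was also lost without BirA control replicate 1, 3 or 4 or Tgif2 OE replicate 3 or 4 (adjusted p up to 0.0836). Plagl1 gave 0.02 and 0.18 (adjusted p = 0.835 and 0.0793), or -0.09 and 0.07 relative to the median. Snrpn gave -0.12 (adjusted p = 0.345), or -0.23 relative to the median. Peg3 gave 0.14, 0.06 and 0.30 without a call, or 0.03, -0.05 and 0.19 relative to the median. With the replicate number as a block, Peg3 1433924_at passed (adjusted p = 0.0184), which made 8 higher, against 40.4% of all probe sets under that fit. With the pairs averaged, 6 of the 7 calls remained, against 24.6% of all probe sets, and Grb10 was the exception (adjusted p = 0.123). Peg3 1433924_at did not pass there either (adjusted p = 0.0767).

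**Figure D3:**
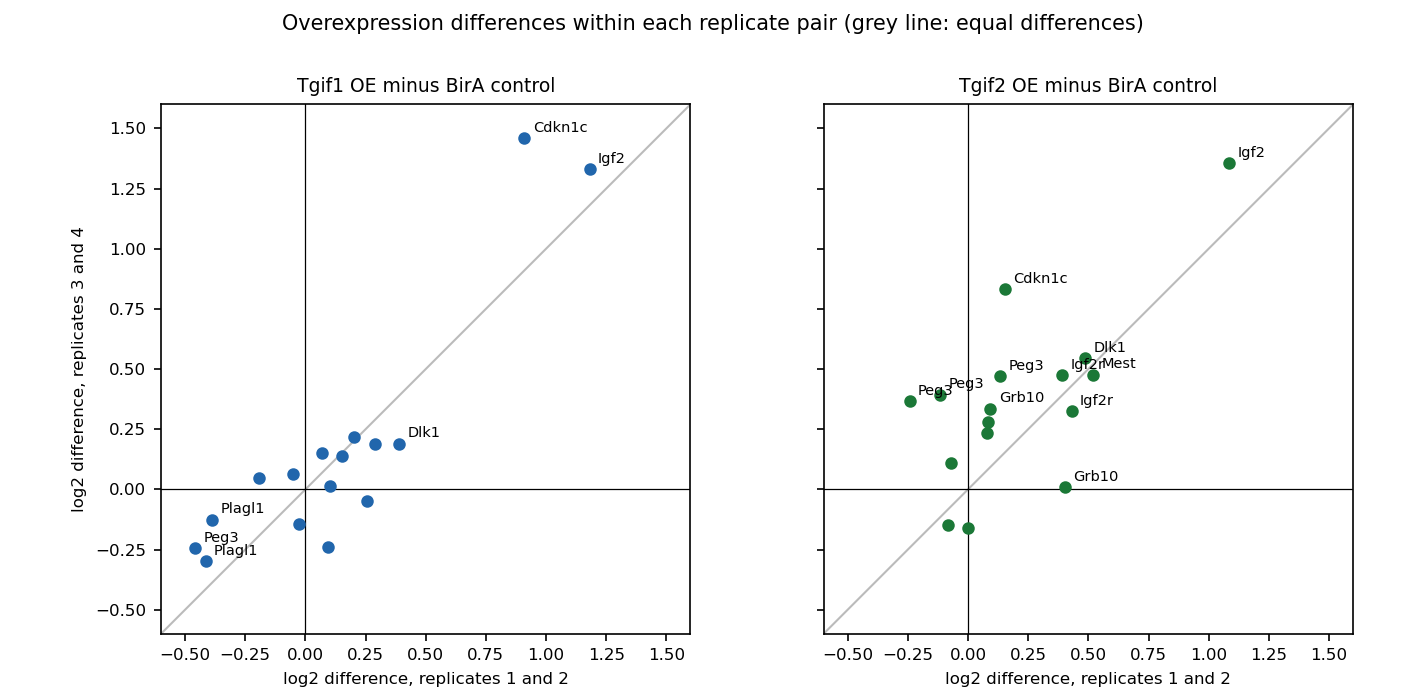
Log2 difference from BirA control of each probe set within replicates 1 and 2 (horizontal axis) and within replicates 3 and 4 (vertical axis), for Tgif1 OE (left) and Tgif2 OE (right), with the grey line marking equal differences. Igf2 (1448152_at) lies high in both panels and in both pairs, and Cdkn1c in Tgif2 OE lies near 0.15 in replicates 1 and 2 and 0.83 in replicates 3 and 4.

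Whether the effect differed between the replicate pairs was tested for every probe set. For Tgif1 OE, 0 of the 16 probe sets passed, against 2.4% of all. For Tgif2 OE, 1 of the 16 passed, against 3.53% of all. That 1 was Peg3 1417355_at, where Tgif2 OE minus BirA control was -0.12 in replicates 1 and 2 and 0.39 in replicates 3 and 4 (difference 0.51, adjusted p = 0.0212). Its call was lost without any 1 of the 4 BirA control arrays, Tgif2 OE replicate 1 or Tgif2 OE replicate 4 (adjusted p up to 0.0825).

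Markers of cell types were counted beside the shares called over all probe sets, 18.7% in Tgif1 OE and 31.7% in Tgif2 OE. Counts and levels are as deposited, and the median change of all probe sets in Tgif2 OE was 0.11. Embryonic fibroblast markers rose at 5 of 14 probe sets in Tgif1 OE (35.7%) and 6 of 14 in Tgif2 OE (42.9%), and fell at 0 in each. Their mean log2 level was 5.42 to 5.89 in Tgif1 OE, 5.22 to 5.73 in Tgif2 OE and 4.70 to 4.998 in BirA control. Trophoblast markers rose at 6 and fell at 3 of 20 probe sets in Tgif1 OE (45%), and rose at 12 and fell at 1 in Tgif2 OE (65%). Their mean level was 6.43 to 6.80 in Tgif1 OE, 6.31 to 6.83 in Tgif2 OE and 5.91 to 6.02 in BirA control. ES cell markers rose at 0 and fell at 6 of 14 probe sets in Tgif1 OE (42.9%), and rose at 2 and fell at 2 in Tgif2 OE (28.6%). They averaged 11.67 to 11.89 in Tgif1 OE, 11.95 to 12.20 in Tgif2 OE and 12.01 to 12.16 in BirA control. Primitive endoderm markers rose at 2 and fell at 1 of 18 in Tgif1 OE (16.7%), and rose at 7 and fell at 2 in Tgif2 OE (50%). Their mean was 5.80 to 5.95 in Tgif1 OE, 5.97 to 6.11 in Tgif2 OE and 5.82 to 5.89 in BirA control. Blood markers rose at 1 (Cd34) and fell at 1 (Cd68) of 7 with each label (28.6%). Their mean was 4.44 to 4.61 in Tgif1 OE, 4.67 to 4.74 in Tgif2 OE and 4.46 to 4.62 in BirA control. The part of these markers in the changes of the imprinted genes was not tested.

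The 2 overexpression labels share BirA control, so they were also set against each other. Cdkn1c was the member with a higher level in Tgif1 OE, and both Plagl1 probe sets were lower there. In all, 1 probe set was higher and 5 were lower in Tgif1 OE than in Tgif2 OE, against 18.9% of all probe sets called, 1.96% higher and 16.9% lower, and the median of all was -0.11. After quantile normalization 1 higher and 2 lower calls remained, against 8.84% of all, 4.51% higher and 4.33% lower.

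Cdkn1c had 8.83 to 9.19 in Tgif1 OE and 8.09 to 8.69 in Tgif2 OE, without overlap, as at 23.6% of all probe sets (0.69 ± 0.13, adjusted p = 0.00314, 0.80 relative to the median). The differences were 0.76 within replicates 1 and 2 and 0.63 within replicates 3 and 4. Plagl1 1426208_x_at had 7.50 to 7.64 in Tgif1 OE and 7.82 to 8.04 in Tgif2 OE (-0.38 ± 0.06, adjusted p = 0.00114, -0.27 relative to the median). Its second probe set gave -0.44 ± 0.08 (adjusted p = 0.00158, -0.33 relative to the median). These 3 calls held after quantile normalization, with adjusted p between 0.00157 and 0.0215.

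Mest was 0.29 lower in Tgif1 OE (adjusted p = 0.00804), Dlk1 0.23 lower (adjusted p = 0.0351) and Grb10 1425458_a_at 0.21 lower (adjusted p = 0.049), but after quantile normalization the adjusted p was 0.202, 0.264 and 0.598. The Dlk1 call was lost on leaving out any of the 8 arrays but replicate 2 of either label (adjusted p up to 0.0969), and the Grb10 call on leaving out any but Tgif2 OE replicate 1 (adjusted p up to 0.124). Igf2 1448152_at, by contrast, had 6.67 to 7.13 in Tgif1 OE and 6.53 to 7.16 in Tgif2 OE, overlapping ranges with a difference of 0.04 ± 0.16 (adjusted p = 0.901). With the replicate number as a block, 1 probe set was higher and 9 were lower, against 28.7% of all probe sets under that fit. The additions were both Igf2r probe sets (adjusted p = 0.0382 and 0.0266) and the Peg3 probe sets 1417356_at and 1433924_at (adjusted p = 0.022 and 0.00925). With the pairs averaged, Cdkn1c was higher and Mest and both Plagl1 probe sets were lower, against 8.42% of all probe sets called, and none of these 4 additions passed (adjusted p between 0.0631 and 0.162).

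**Figure D4:**
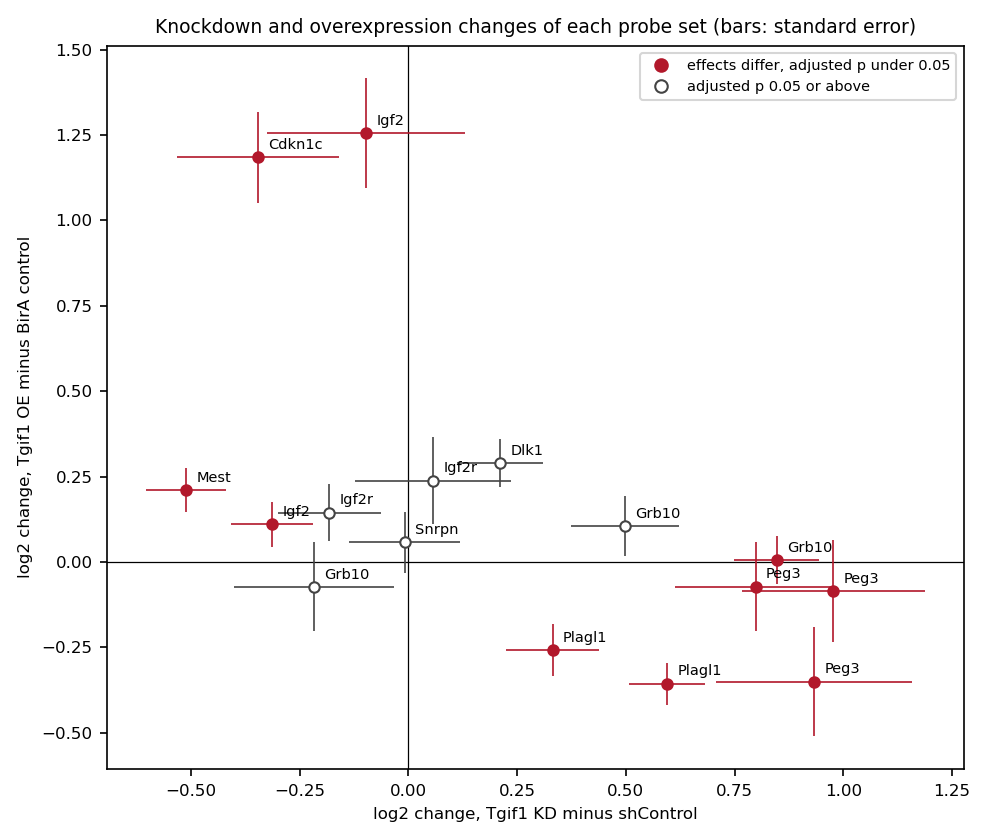
Log2 change in the knockdown (Tgif1 KD minus shControl, horizontal axis) against the change in Tgif1 OE minus BirA control (vertical axis) for each of the 16 probe sets, with standard errors. Red points are the 10 probe sets at which the changes differed, against 25.3% of all probe sets. The 3 probe sets called in both comparisons, Mest and both Plagl1, have opposite signs. The share of opposite signs among all probe sets called in both was not counted. The Tgif1 OE calls of Mest and of the dim Plagl1 probe set (1450533_a_at) did not hold with the replicate pairs averaged.

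Knockdown and overexpression of Tgif1 rest on separate controls, and their effects were compared directly. They differed at 10 of the 16 probe sets from 6 genes, with the knockdown effect higher at 6 and lower at 4, against 25.3% of all probe sets. Of the 3 probe sets called in both comparisons, Mest was lower in the knockdown and higher in Tgif1 OE. The 2 Plagl1 probe sets were higher in the knockdown and lower in Tgif1 OE. With the replicate pairs averaged, Mest and the dim Plagl1 probe set did not pass in Tgif1 OE (adjusted p = 0.0989 and 0.112). The share of opposite signs among all probe sets called in both comparisons was not counted. The difference of the effects was -0.72 ± 0.11 for Mest (adjusted p = 0.000226) and 0.95 ± 0.11 for Plagl1 1426208_x_at (adjusted p = 1.29e-05).

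Cdkn1c gave the largest difference of effects among the 16 in size (-1.53 ± 0.23, adjusted p = 0.000169), most of it from the overexpression. Igf2 gave -1.35 ± 0.28 at 1448152_at (adjusted p = 0.00217) and -0.42 ± 0.12 at the dim probe set (adjusted p = 0.0138), a call that leaving out Tgif1 KD replicate 2 removed (adjusted p = 0.052). The 3 Peg3 probe sets gave 0.87, 1.28 and 1.06 (adjusted p = 0.0101, 0.00304 and 0.00661) and Grb10 1425458_a_at 0.84 ± 0.12 (adjusted p = 0.000113), most of it from the knockdown. Dlk1 gave -0.08 (adjusted p = 0.694).

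Over all 5 groups, Mest and Cdkn1c had a level order in which no neighbouring groups overlapped. The share of all probe sets with such an order was not counted. In single comparisons of 2 groups, 21.6% to 67.7% of all probe sets were separate. Mest had 9.94 ± 0.06 in Tgif2 OE, 9.65 ± 0.09 in Tgif1 OE, 9.44 ± 0.09 in BirA control (SD, n = 4 each), 8.94 ± 0.09 in shControl and 8.43 ± 0.06 in Tgif1 KD (SD, n = 2 each). Cdkn1c had 9.02 ± 0.18 in Tgif1 OE, 8.33 ± 0.28 in Tgif2 OE, 7.84 ± 0.19 in BirA control, 7.14 ± 0.09 in shControl and 6.79 ± 0.07 in Tgif1 KD. For both genes the controls themselves differed, with shControl 0.51 below BirA control for Mest (-0.51 ± 0.08, adjusted p = 0.000501) and 0.70 below it for Cdkn1c (-0.70 ± 0.16, adjusted p = 0.0069; 0.0805 without shControl replicate 1). At Snrpn, both Igf2r probe sets and Grb10 1430164_a_at, every pair of neighbouring groups overlapped.

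Between the controls, 8 of the 16 probe sets differed, 2 higher and 6 lower in shControl than in BirA control, against 19.8% of all probe sets. Both Igf2r probe sets were higher (0.50 and 0.54, adjusted p = 0.0031 and 0.0229), and the lower ones were the 3 of Peg3 and those of Mest, Plagl1 (1426208_x_at) and Cdkn1c. The call for Igf2r 1424112_at was lost without either shControl array or without BirA control replicate 3 or 4 (adjusted p up to 0.169), and that for Peg3 1417355_at without either shControl array or without BirA control replicate 1 or 2 (adjusted p up to 0.186). Knockdown arm and overexpression arm cannot be told apart from the control vectors in this comparison.

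Among all genes, the profiles most like those of the 3 members with the widest range of group means were found by the mean absolute difference of log2 values over the 16 arrays, each profile centred on its own mean. For Cdkn1c they were Car2 (carbonic anhydrase, 0.18), Mal2 (0.19) and Gatm (0.22), the last an imprinted gene in mouse placenta. For Igf2 1448152_at they were Mpdz, Ptger4 and Fgf13, at 0.16 each. For Mest they were 2010204K13Rik (0.07), Eef1akmt1 (0.10) and Kdm8 (0.10).

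Other imprinted genes and related gene lists were counted beside the members, with Tgif2 OE changes as deposited. Of 60 listed genes, 45 were on the array with 78 probe sets. In the knockdown 13 rose and 6 fell (24.4%), in Tgif1 OE 15 rose and 6 fell (26.9%), and in Tgif2 OE 24 rose and 4 fell (35.9%), beside 23%, 18.7% and 31.7% of all probe sets. The median change was 0.03, 0.03 and 0.15 log2, beside -0.04, 0.00 and 0.11 over all probe sets. Sgce, the epsilon-sarcoglycan gene next to Peg10, was higher in both Tgif1 perturbations, by 2.05 ± 0.21 in the knockdown (adjusted p = 7.79e-06) and by 0.94 ± 0.15 in Tgif1 OE (adjusted p = 0.000507). In the knockdown Peg12 (1.33 ± 0.20, adjusted p = 0.000179) and Ddc (0.99 ± 0.11, adjusted p = 1.98e-05) rose too. Calcr, the calcitonin receptor gene, rose by 2.44 ± 0.23 in Tgif1 OE (adjusted p = 7.01e-06) and by 1.63 ± 0.23 in Tgif2 OE (adjusted p = 0.00013). Pon2 rose by 1.01 in Tgif1 OE and by 1.05 in Tgif2 OE at 1 of its 2 probe sets, and Gatm by 1.00 in Tgif1 OE. Sfmbt2 (0.90) and Ndn 1435383_x_at (0.87) were among the largest changes of the list in Tgif2 OE. The other Ndn probe sets gave 0.06 to 0.80 there, beside the median change of 0.11 over all probe sets.

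Factors that set or keep imprints were measured at 35 probe sets of 17 out of 25 listed genes. In the knockdown 3 rose and 8 fell, in Tgif1 OE 6 rose and 3 fell, and in Tgif2 OE 8 rose and 1 fell, which were 31.4%, 25.7% and 25.7% of the list, beside 23%, 18.7% and 31.7% of all probe sets. The de novo DNA methyltransferase Dnmt3b was lower in the knockdown (-0.61 ± 0.09 at 1449052_a_at, adjusted p = 0.000121) and higher in Tgif1 OE (0.85 ± 0.12 at 1418351_a_at, adjusted p = 0.000152) and Tgif2 OE (0.97 ± 0.12, adjusted p = 3.36e-05, 0.86 relative to the median). Dnmt3a rose in Tgif1 OE by up to 0.88 ± 0.11 (adjusted p = 5.13e-05). Dppa3 (Stella), which protects maternal methylation in the zygote, fell by 1.28 in the knockdown (-1.28 ± 0.26, adjusted p = 0.00188) and rose by 1.07 ± 0.18 in Tgif2 OE (adjusted p = 0.000457). Arid4b went up in the knockdown, by 0.79 ± 0.25 at 1431031_at (adjusted p = 0.0348) and by 0.72 ± 0.24 at 1435768_at (adjusted p = 0.0392).

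The pathway on which Igf2, Igf2r and Grb10 act was represented by 37 probe sets of 18 out of 20 further genes. In the knockdown 4 rose and 2 fell (16.2%), in Tgif1 OE 9 rose and 2 fell (29.7%), and in Tgif2 OE 17 rose and 0 fell (45.9%, with a median change of 0.26 against 0.11 over all probe sets). The shares over all probe sets were 23%, 18.7% and 31.7%. Igfbp3, a secreted protein that binds insulin-like growth factors, rose by 2.56 ± 0.21 in Tgif1 OE (adjusted p = 2.25e-06) and by 1.85 ± 0.21 in Tgif2 OE (adjusted p = 2.24e-05). The receptor substrate Irs1 rose by 1.46 ± 0.38 in Tgif1 OE (adjusted p = 0.0128) and by 1.58 ± 0.53 in the knockdown (adjusted p = 0.043). Pik3r1, the regulatory subunit of phosphoinositide 3-kinase, rose by 0.99 ± 0.12 in the knockdown at 1 of its 3 probe sets (adjusted p = 2.86e-05). Akt2 rose at both of its probe sets there (0.70 and 0.69, adjusted p = 0.02 and 7.01e-05).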

How the data were processed

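The deposited values are log2 intensities of probe sets. The submitters' processing notes name RMA for every sample and limma for those of Tgif2 OE, in versions not given in the sources used here. They ran from 2.19 to 14.79 and were used without further normalization, detection filter or floor. Of 22690 rows, 64 were array controls, 20380 carried 1 gene symbol, 691 several and 1555 none.

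All 20380 probe sets were fitted together on the 16 arrays, as 1 mean per group with moderated tests (limma 3.58.1, R 4.3.3). Benjamini-Hochberg adjustment ran over all probe sets of a comparison, and the threshold was 0.05. Values after ± are standard errors of the fit unless SD is named, and levels are per probe set, so they are not compared between genes. The number of arrays limits the precision. The imprinted genes, the other gene lists and the tests were chosen with earlier results of these data known. Named are every member probe set, Tgif1, Tgif2, the 3 closest profiles of 3 members, and up to 4 called probe sets per list with the largest change.

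Same-numbered arrays of the overexpression groups deviated together from their group means (r of 0.31 to 0.56 in 12 of 12 comparisons). In 0 of 12 was the own number the best match, which was always the other array of replicates 1 and 2 or of 3 and 4. These r values therefore cannot tell pairing by number from a likeness within those replicate pairs. The main fit used no pairing, and only the replicate block took the numbers as paired. In the knockdown arm r was 0.003 with 2 pairs. Alternatives were quantile normalization, centring, leaving out dim probe sets, another variance model, 1 probe set per gene, fits of the compared groups alone, the replicate block, the replicate pairs, and leaving out each array. Figures were drawn with matplotlib 3.10.9.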

Additional observations from a re-analysis of the deposited data

Results flagged for a closer look

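The probe set that the annotation pairs with both Mir675 and H19 was used in no comparison, since only probe sets with 1 gene symbol were tested. It had 5.25 and 5.18 in Tgif1 KD, against 6.49 and 6.48 in shControl. In Tgif2 OE it had 8.28, 8.33, 9.41 and 9.47, all above the 7.17 to 7.63 of BirA control, a mean difference of 1.49 as deposited. Groups were separate at 30.1% of all probe sets with 1 gene symbol in that comparison, and at 67.7% in the knockdown. In Tgif1 OE it split by replicate pair, with 4.59 and 5.002 in replicates 1 and 2 and 9.19 and 9.28 in replicates 3 and 4, so that the difference from BirA control was -2.37 in the one pair and 1.64 in the other. That inequality was not tested.

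The 4 probe sets shared by Snurf and Snrpn were also outside the comparisons. At 1421063_s_at both Tgif1 KD arrays were above both shControl arrays by a mean of 0.37, and at 1435716_x_at by 0.17. The Tgif1 OE arrays were all above BirA control at 1415895_at (0.15) and 1435716_x_at (0.19), and the Tgif2 OE arrays at 1415895_at (0.19) and 1415896_x_at (0.20). Among all probe sets with 1 gene symbol, groups were separate at 67.7% in the knockdown, 21.6% in Tgif1 OE and 30.1% in Tgif2 OE. The Tgif2 OE values are as deposited, where the median change of all probe sets was 0.11. At 1421063_s_at the replicate pairs moved in opposite directions, untested: in Tgif1 OE the difference was -0.37 in replicates 1 and 2 and 0.0904 in replicates 3 and 4, and in Tgif2 OE it was -0.12 in replicates 1 and 2 and 0.22 in replicates 3 and 4.

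Peg3 also moved in opposite directions between pairs. At 1417355_at, Tgif2 OE minus BirA control was -0.12 in replicates 1 and 2 and 0.39 in replicates 3 and 4, a tested difference of 0.51 (adjusted p = 0.0212, up to 0.0825 on leaving out 1 array). In Tgif1 OE the same probe set gave 0.10 and -0.24, where the difference did not pass the test. At 1417356_at in Tgif2 OE the values were -0.24 and 0.37, and this difference did not pass it either. Single arrays stood apart at Grb10: 1425458_a_at was 9.84 in Tgif1 OE replicate 2, below the others of its group, and 1430164_a_at was 5.40 in Tgif2 OE replicate 2, above the others. Chance alone gives such a gap in about 1 in 20 groups, and 48 groups were examined.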

How the results depend on the processing

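Leaving out 1 array at a time gave 6 to 8 called imprinted probe sets for Tgif1 KD minus shControl (9 with all arrays), 4 to 6 for Tgif1 OE minus BirA control (6), 5 to 7 for Tgif2 OE minus BirA control (7), 4 to 7 for Tgif1 OE minus Tgif2 OE (6), 5 to 7 for shControl minus BirA control (8) and 9 to 11 for the knockdown effect minus the overexpression effect (10). For the difference between replicate pairs it gave 0 to 2 in Tgif2 OE (1). Over all 20380 probe sets, leaving out 1 array gave 3032 to 3523 calls for Tgif1 OE minus BirA control (3801 with all arrays). It gave 5478 to 6002 for Tgif2 OE minus BirA control (6451) and 2745 to 3321 for Tgif1 OE minus Tgif2 OE (3847). Leaving out an array of the knockdown arm leaves 1 array in its group, and fewer of all probe sets were called there. Ranges are therefore not given for the comparisons with that arm. Nor are they given for the test between replicate pairs, where it leaves 1 array in a pair. With 1 probe set per gene, the counts were 4 of 9 for the knockdown, 5 between the controls and 6 for the difference of effects. Over all 12393 genes they were 3146, 2619 and 3418. With the replicate number as a block (paired fit), Tgif1 OE minus Tgif2 OE had 10 calls, as it had with the pair as a fixed term and with replicates 3 and 4 alone. Over all 20380 probe sets, these 3 fits called 5854, 7021 and 3484. The block left 9 in the knockdown, beside 6494 over all, and added the calls named beside the results for the overexpression labels. No call was lost under it. Quantile normalization and centring each left 3 for Tgif1 OE minus Tgif2 OE, beside 1801 and 1643 over all. Averaging the pairs left 3 for Tgif1 OE minus BirA control, beside 2891 over all. Replicates 3 and 4 alone gave 11 for Tgif2 OE minus BirA control, beside 6600 over all. For the difference between pairs in Tgif2 OE, quantile normalization and centring gave 2 each, beside 874 and 849 over all. Leaving out dim probe sets gave 3, beside 1246 of 13586. The trended, robust variance gave 4, beside 1750 over all, and 1 in Tgif1 OE, beside 1454. Peg3 1417356_at in Tgif2 OE minus BirA control turned to -0.24 with replicates 1 and 2 alone (adjusted p = 0.0316). The causes were not tested. Igf2 1415931_at, Plagl1 1450533_a_at and Grb10 1430164_a_at are dim, and their signal over background limits what their changes show.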
